A study of Mus musculus with 21 samples.

Results

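Antigen presentation by MHC class II and the costimulatory ligands that go with it were followed through 10 genes in mouse kidney macrophages. The genes were H2-Aa, H2-Ab1, H2-Eb1, Cd74, Ciita, H2-DMa, H2-DMb1, Cd80, Cd86 and Cd40, and they were picked by symbol out of 34236 symbols in the table of gene counts. All 10 were found and all 10 passed the filter on low counts in every comparison. Macrophages positive for F4/80 and CD64 were sorted from kidneys of male C57BL/6J mice aged 24 weeks. The sort gave 3 populations, namely CD11chiMϕ (high for CD11b and CD11c), CD11cloMϕ (high for CD11b, low or negative for CD11c) and kidney-resident macrophages (KRM, intermediate for both). The kidneys came from Sham mice or from mice with renal artery stenosis (RAS), in which the right renal artery carried a polytetrafluoroethylene cuff, while in Sham mice it was only exposed. The labels name no transgene and no drug in any group. There were 3 Sham and 4 RAS libraries of CD11chiMϕ, 3 Sham and 4 RAS libraries of CD11cloMϕ, and 4 Sham and 3 RAS libraries of KRM. The labels do not say whether each library came from its own mouse, so the p-values measure the spread between these libraries, which may be partly technical.

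MHC class II molecules carry peptides from the endosome to the cell surface, where CD4 T cells read them. H2-Aa and H2-Ab1 encode the alpha and beta chains of I-A, and H2-Eb1 encodes the beta chain of I-E. Cd74 encodes the invariant chain, which fills the peptide groove until the endosome is reached, and H2-DMa and H2-DMb1 encode the H2-M dimer that exchanges the remaining fragment for peptide. Ciita is the transactivator of this gene set and acts through the factors bound at the S, X and Y elements of its promoters. Cd80 and Cd86 encode the B7 ligands of CD28 and CTLA-4 on T cells, and Cd40 encodes the receptor for CD40 ligand. In C57BL/6 mice the gene for the I-E alpha chain is defective, so the RNA of H2-Eb1 does not give a surface I-E dimer. The H2-Ea-ps row, which stands for that gene, reached at most 0.317 CPM in any library.

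H2-Aa, H2-Ab1, H2-Eb1, H2-DMa and H2-DMb1 lie together on chromosome 17 (GRCm38), from chr17:34119541 at the start of H2-DMa to chr17:34316674 at the end of H2-Eb1. H2-Aa is on the minus strand at chr17:34282744-34287823, and H2-Ab1 is on the plus strand at chr17:34257689-34269419. Ciita, Cd80 and Cd86 are on chromosome 16 and Cd40 is on chromosome 2. The library kit does not mark strand, and GENCODE places another gene across part of H2-Eb1, Cd74, Ciita and H2-DMa. Among the 50-base windows of the H2-DMb1 transcripts, 22.7% also occur in H2-DMb2, so reads could be split between these genes and the values of both are uncertain. For H2-Aa and Cd40 these shares were 0.488% and 0.334%, and for the other members none were shared.

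Promoter sequence of 2 members is printed because it holds the elements through which Ciita is known to act. RefSeq promoter windows (GRCm38.p6, 250 bases before to 50 bases after the start) were held for H2-Aa, H2-Eb1, H2-DMa, H2-DMb1 and Cd80. Capitals mark the letters searched on both strands. These were TGATTGG for the Y box, TGACGTCA for the CRE-like part that follows an X box, and for the X box the 11 letters of the run of capitals nearer the 5′ end in the H2-Eb1 line, and no matches overlapped. The 150 bases before each start are given on the strand of the gene.
H2-Aa, chr17:34287824-34287973, minus strand: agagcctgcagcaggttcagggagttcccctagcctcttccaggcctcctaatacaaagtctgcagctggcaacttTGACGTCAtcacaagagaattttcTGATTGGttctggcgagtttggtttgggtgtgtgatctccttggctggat
H2-Eb1, chr17:34305717-34305866, plus strand: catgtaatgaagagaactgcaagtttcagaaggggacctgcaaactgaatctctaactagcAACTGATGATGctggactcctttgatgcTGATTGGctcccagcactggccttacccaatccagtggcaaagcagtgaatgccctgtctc

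The Y box letters began 50 bases before the start of H2-Aa, 61 before that of H2-Eb1 and 63 before that of H2-DMb1. The X box letters stood 89 bases before the start of H2-Eb1 and 92 before that of H2-DMb1, and the CRE-like letters 74 bases before that of H2-Aa. These starts are those of RefSeq. GENCODE starts H2-DMb1 at chr17:34153072, upstream of both of its matches, so by GENCODE they lie inside the gene. The same Y box letters occurred in the windows of H2-DMb2, H2-Oa, H2-Ob and H2-Eb2. The window of H2-DMb2 also lies inside the gene by GENCODE, which starts it at chr17:34143307. Of all 32851 promoter windows of this length, 7.82% held the Y box letters, 0.0365% the X box letters and 1.79% the CRE-like letters. None of the 3 motifs was found in the windows of H2-DMa and Cd80.

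The libraries held 6891142 to 18592381 counts and 14607 to 17703 genes with a count, so counting error was small for all members but Cd80, which had few counts in KRM and in CD11chiMϕ from Sham kidneys. Levels are CPM, the count as a share of the library scaled to a common total, with trimmed-mean (TMM) factors. Several libraries stood apart in markers of other cells. Proximal tubule RNA was high in the Sham libraries numbered 3, with Slc34a1, the phosphate transporter of the proximal tubule, at 5175 CPM in CD11chiMϕ, 1372 CPM in CD11cloMϕ and 843 CPM in KRM. CD11chiMϕ RAS libraries 2 to 4 held less RNA of Adgre1, the gene of F4/80, with 119 to 196 CPM against 762 CPM in RAS library 1 and 319 to 943 CPM in the Sham libraries. The same 3 libraries held 1436 to 4263 CPM of the dendritic cell gene Cd209a, against 693 CPM in RAS library 1. KRM RAS libraries 2 and 3 held 1947 and 1450 CPM of Umod, a gene of the thick ascending limb, and KRM RAS library 1 held 113 CPM of the NK and T cell gene Nkg7. Summed B and plasma cell markers were 412 to 517 CPM in KRM from Sham kidneys and highest in CD11chiMϕ Sham library 2 (821 CPM) and RAS library 2 (578 CPM), while the B cell gene Pax5 of that list reached at most 0.126 CPM in any library. Within such sorted bulk samples, fewer cells of a type and less RNA per cell cannot be told apart.

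The class II chains made up a large and variable part of all RNA counted. H2-Aa, H2-Ab1, H2-Eb1 and Cd74 together took 9.996% to 13.5% of the counts in KRM from Sham kidneys, 3.55% to 8.39% in CD11chiMϕ from Sham kidneys and 0.879% to 1.37% in CD11cloMϕ from Sham kidneys. In RAS kidneys they took 6.73% to 9.77% in KRM, 7.50% to 11.9% in CD11chiMϕ and 1.57% to 8.30% in CD11cloMϕ. Per kilobase of exon, Cd74 had the highest median level over the 21 libraries, at 24583 CPM per kb, followed by H2-Ab1 with 6214 CPM per kb. Ciita stood at 30.4 CPM per kb, Cd86 at 44.8 CPM per kb, Cd40 at 12.7 CPM per kb and Cd80 at 3.56 CPM per kb. The RNA of Cd86 thus exceeded that of Cd80 per length over these libraries, and both lay far under the chains.

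**Figure D1:**
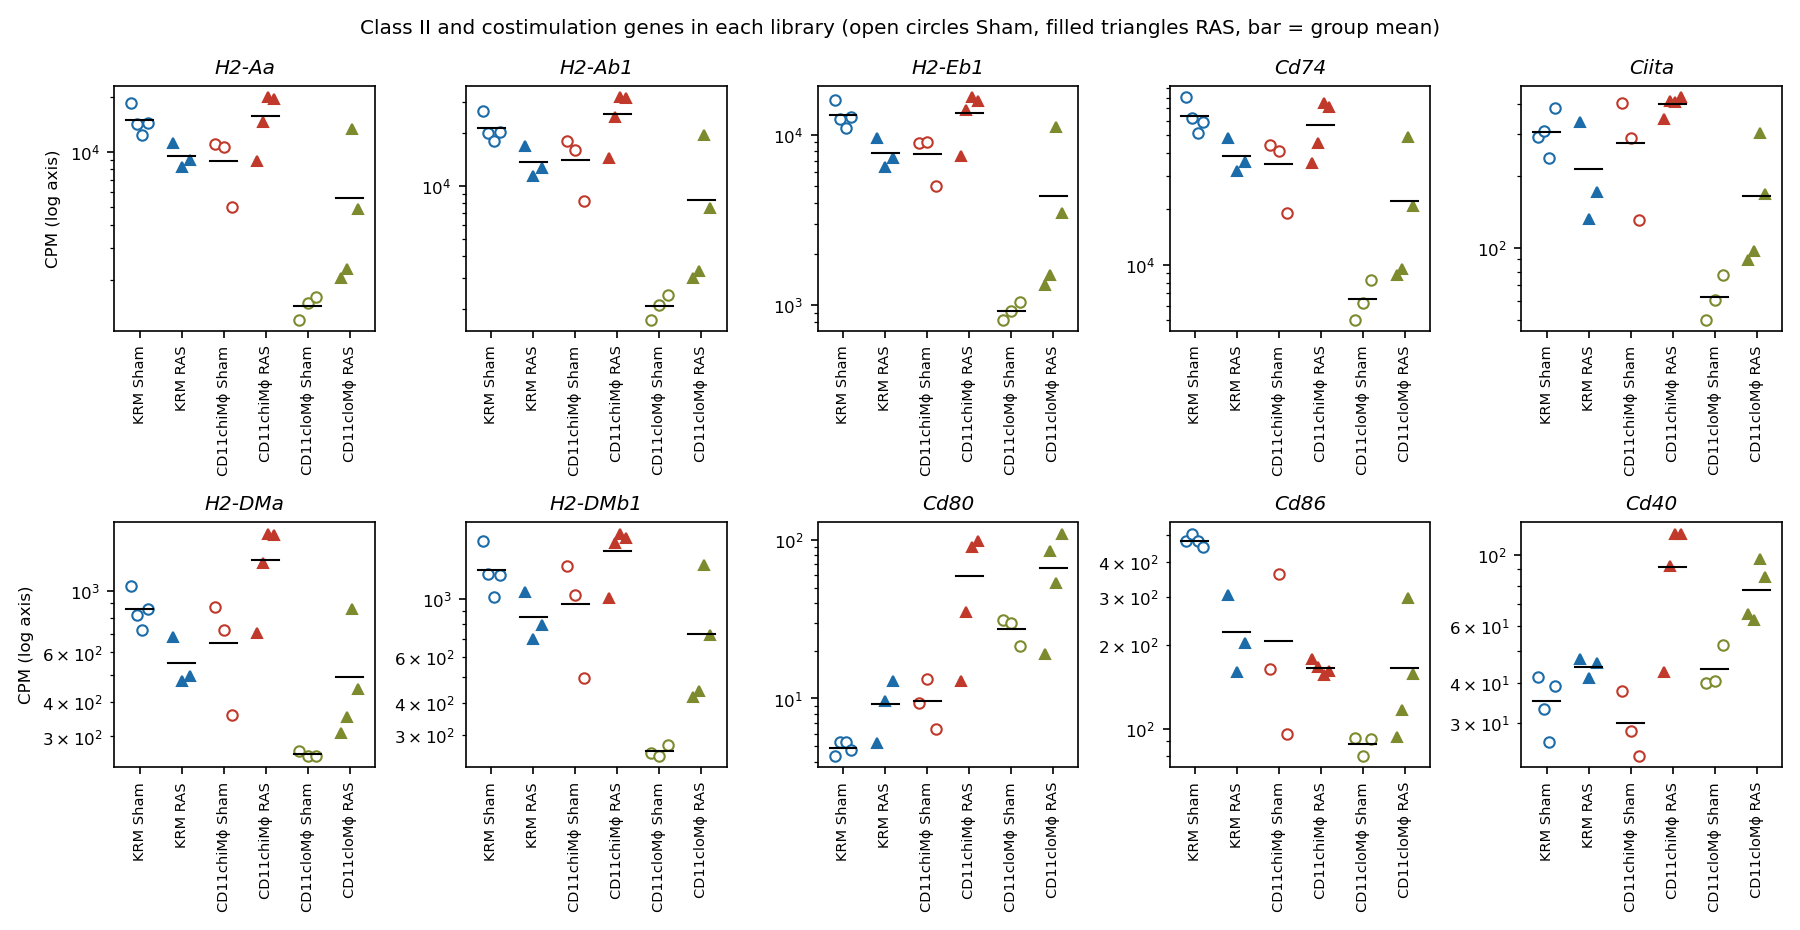
Level of each of the 10 genes in each library, in TMM-scaled CPM on a log axis, with open circles for Sham, filled triangles for RAS and a bar at the group mean. The class II genes and Ciita are lowest in CD11cloMϕ from Sham kidneys, Cd80 is lowest in KRM from Sham kidneys, where all 4 libraries lie between 4.33 and 5.29 CPM, and Cd86 is highest there, between 454 and 507 CPM.

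H2-Ab1, taken here to show the chains, had 26744, 20071, 17996 and 20270.2 CPM in the KRM libraries from Sham kidneys. Its levels were 17955, 15957 and 8269 CPM in CD11chiMϕ and 1744, 2104 and 2406 CPM in CD11cloMϕ from Sham kidneys. In RAS kidneys the levels were 16875, 11388 and 12647 CPM in KRM, 14507, 24758, 31946 and 31609 CPM in CD11chiMϕ and 2990, 3312, 19519 and 7457 CPM in CD11cloMϕ. The low values were therefore those of CD11cloMϕ, except in RAS library 3 of that population, which lay among the values of the other populations. By group mean the order of H2-Ab1 was CD11chiMϕ RAS, KRM Sham, CD11chiMϕ Sham, KRM RAS, CD11cloMϕ RAS and CD11cloMϕ Sham. Only the neighbours KRM Sham and CD11chiMϕ Sham, and CD11cloMϕ RAS and CD11cloMϕ Sham, had values that did not overlap.

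H2-Aa and H2-Ab1 kept a nearly fixed proportion while the level of the chains varied. H2-Aa varied 16.4-fold, H2-Ab1 18.3-fold, H2-Eb1 20.2-fold and Cd74 15.96-fold between the lowest and the highest library. The ratio of H2-Aa CPM to H2-Ab1 CPM stayed between 0.589 and 0.721 in all 21 libraries. The ratio of Cd74 to H2-Ab1 lay between 1.83 and 3.43, and that of H2-Eb1 to H2-Ab1 between 0.433 and 0.628. Both differed by population. H2-Eb1 to H2-Ab1 was 0.595 to 0.628 in KRM and 0.433 to 0.472 in CD11cloMϕ from Sham kidneys. Cd74 to H2-Ab1 was 2.86 to 3.09 in KRM and 2.31 to 2.59 in CD11chiMϕ from Sham kidneys. Ciita varied 8.51-fold, so the ratio of H2-Ab1 to Ciita ranged from 31.1 in CD11cloMϕ Sham library 3 to 91.6 in KRM Sham library 1. The H2-M genes had a smaller range, 6.27-fold for H2-DMa and 7.16-fold for H2-DMb1. Their ratio, H2-DMa to H2-DMb1, was 0.934 to 1.03 in CD11cloMϕ from Sham kidneys and 0.608 to 0.920 in the other libraries.

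Of the costimulatory genes in Sham kidneys, Cd86 had the same order of group means as H2-Ab1, with KRM highest and CD11cloMϕ lowest. Cd80 had the opposite order, and Cd40 was highest in CD11cloMϕ and lowest in CD11chiMϕ. The ratio of Cd86 CPM to Cd80 CPM was 90.1 to 110 in KRM, 14.9 to 27.6 in CD11chiMϕ and 2.67 to 4.26 in CD11cloMϕ from Sham kidneys, so the populations were separate. In RAS kidneys the ratio was 15.8 to 58.4 in KRM, 1.65 to 13.8 in CD11chiMϕ and 1.37 to 5.56 in CD11cloMϕ. In KRM and in CD11chiMϕ every RAS value lay under every Sham value of the same population, and in CD11cloMϕ they overlapped. No test was made of these ratios.

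**Figure D2:**
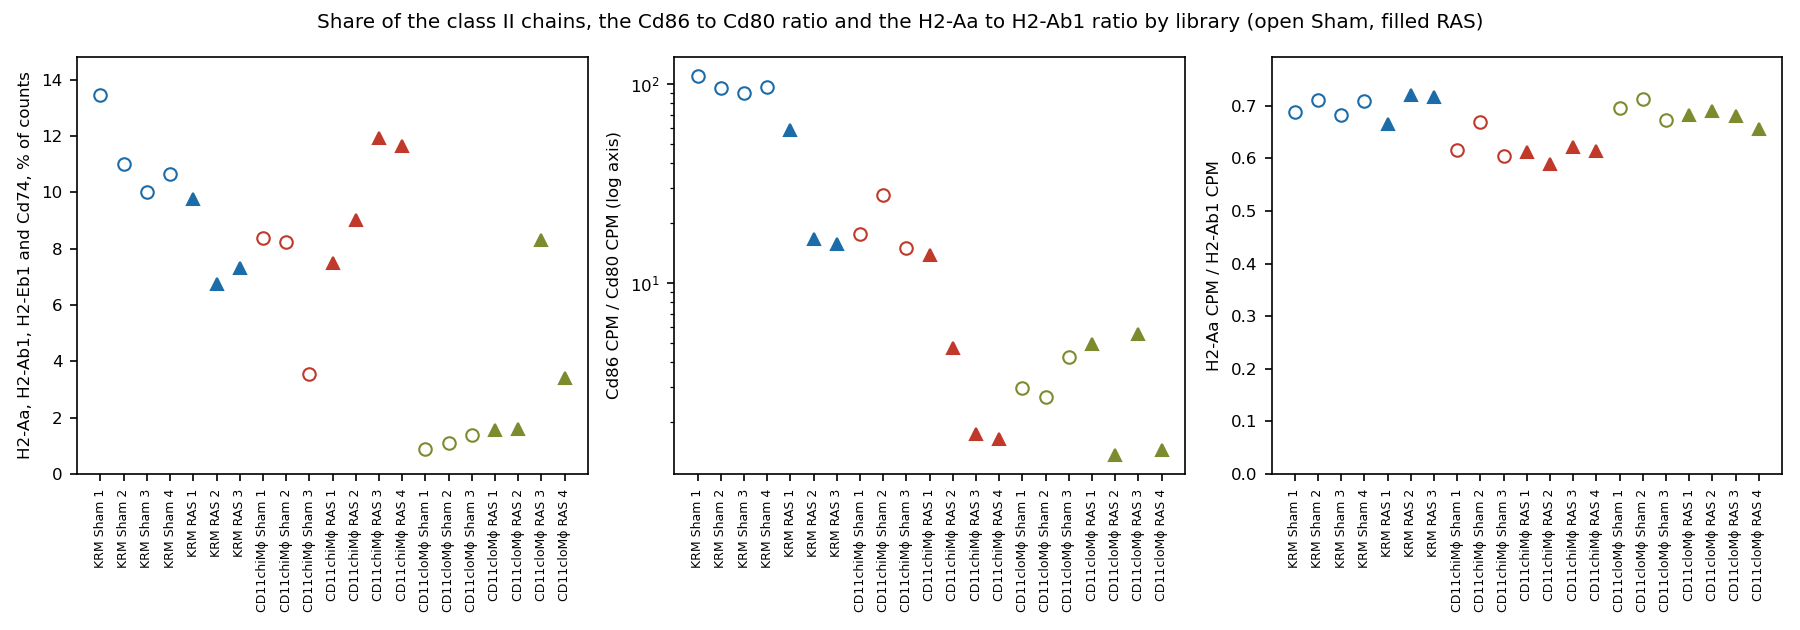
Share of all counts taken by H2-Aa, H2-Ab1, H2-Eb1 and Cd74 in percent (left), Cd86 CPM over Cd80 CPM on a log axis (middle) and H2-Aa CPM over H2-Ab1 CPM (right), 1 point per library, open for Sham and filled for RAS. The share spans 0.879% to 13.5%, the Cd86 to Cd80 ratio 1.37 to 110, and the H2-Aa to H2-Ab1 ratio only 0.589 to 0.721.

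KRM from Sham kidneys had far more class II and Cd86 RNA than CD11cloMϕ from Sham kidneys, and less Cd80 RNA. With edgeR's quasi-likelihood test and Benjamini-Hochberg adjustment over all genes, 9 of the 10 members differed, 8 higher and 1 lower in KRM. Across all 12365 genes tested 41.9% were called. The median log2 fold change was 2.36 over the members and -0.04 over all genes tested. H2-Eb1 was 12991 ± 2075 CPM in KRM (SD, n = 4) and 931 ± 109 CPM in CD11cloMϕ (n = 3), a log2 fold change of 3.78 ± 0.20 (SE) with an adjusted p of 5.19e-06. H2-Aa, H2-Ab1 and Cd74 were higher by log2 fold changes of 3.34 ± 0.21, 3.33 ± 0.21 and 3.26 ± 0.25. Ciita, at 306 ± 60.5 CPM against 62.8 ± 13.6 CPM, was higher by 2.27 ± 0.20. H2-DMa and H2-DMb1 were higher by 1.71 ± 0.15 and 2.29 ± 0.18. For the 9 genes called the values of the 2 populations did not overlap, and 48.9% of all genes tested were separate in either direction.

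The B7 ligands went opposite ways in the same comparison. Cd86 was 475, 507, 476 and 454 CPM in KRM and 92.8, 79.6 and 91.7 CPM in CD11cloMϕ, a log2 fold change of 2.42 ± 0.12 with an adjusted p of 3.72e-06. Cd80 was 4.33, 5.29, 5.29 and 4.71 CPM in KRM and 31.1, 29.8 and 21.6 CPM in CD11cloMϕ, a log2 fold change of -2.51 ± 0.21 with an adjusted p of 5.27e-05. Every KRM library lay above every CD11cloMϕ library for Cd86 and below every one for Cd80. Cd40 was 35.0 ± 6.92 CPM in KRM and 44.2 ± 6.99 CPM in CD11cloMϕ, and its log2 fold change of -0.36 ± 0.18 was not called (adjusted p = 0.142). The count of 9 members was also obtained with each library left out in turn and without the Sham libraries numbered 3. Monocyte markers moved with this comparison, with a summed level of 2532 to 9310 CPM in CD11cloMϕ and 537 to 824 CPM in KRM over the 6 genes listed, all 6 of them called lower in KRM. Summed neutrophil markers were 689 to 1607 CPM in CD11cloMϕ and 3.03 to 6.86 CPM in KRM, with 3 of 3 tested called lower in KRM. Summed B and plasma cell markers were 412 to 517 CPM in KRM and 14.1 to 46.9 CPM in CD11cloMϕ, with Pax5 at 0 in these KRM libraries. Of 10 dendritic cell markers tested, 5 were called higher and 1 lower in KRM, and their summed level was 227 to 268 CPM in KRM and 114 to 230 CPM in CD11cloMϕ. The part of these markers in the result was not tested.

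CD11chiMϕ also stood above CD11cloMϕ in class II RNA in Sham kidneys, but 1 library widened the spread. H2-Eb1 was 8984, 9041 and 4985 CPM in CD11chiMϕ and 823, 928 and 1042 CPM in CD11cloMϕ, a log2 fold change of 3.10 ± 0.44 with an adjusted p of 0.0361 by edgeR. It was the 1 member called, where 1.52% of 12105 genes were called. The values of all 10 members were separate between the populations, 8 higher and 2 lower in CD11chiMϕ, against 26.8% of all genes in either direction. The median log2 fold change was 2.05 over the members and 0.13 over all genes. H2-Aa, H2-Ab1 and Cd74 had log2 fold changes of 2.68 ± 0.49, 2.81 ± 0.53 and 2.47 ± 0.70, and Ciita 2.18 ± 0.41, with adjusted p of 0.0597, 0.0665, 0.146 and 0.0626. Cd80 was 9.30, 13.2 and 6.40 CPM in CD11chiMϕ, a difference of -1.45 ± 0.31 on the log2 scale (adjusted p = 0.088). H2-DMa, H2-DMb1 and Cd86 had log2 fold changes of 1.38 ± 0.32, 1.93 ± 0.36 and 1.28 ± 0.45, and Cd40 of -0.50 ± 0.23.

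CD11chiMϕ Sham library 3 had the lowest level of its group for all 10 members, for example 132 CPM of Ciita against 404 and 290.0 CPM, and it is the library with the most tubule RNA (summed tubule markers 9645 CPM against 134 and 172 CPM). Without it, 8 members were called, and without all Sham libraries numbered 3, 9 members were called. With any 1 of the other 5 libraries left out, none was called. With the replicate number as a block 5 members were called, namely H2-Aa, H2-Eb1, Ciita, H2-DMb1 and Cd80. Of these Sham libraries, only those numbered 3 deviated most like each other (correlation 0.660). Those numbered 1 and 2 each deviated more like a library of another number, so the numbers may not pair them. DESeq2 called 8. Summed dendritic cell markers were 453 to 1977 CPM in CD11chiMϕ and 114 to 230 CPM in CD11cloMϕ, with 2 of 11 called higher. Summed B and plasma cell markers were 197 to 821 CPM in CD11chiMϕ and 14.1 to 46.9 CPM in CD11cloMϕ, with 1 of 4 tested called higher. Summed monocyte markers were 282 to 1863 CPM against 2532 to 9310 CPM, with 1 of 6 called lower, and summed neutrophil markers 26.4 to 89.0 CPM against 689 to 1607 CPM, with none of 3 called. The part of these markers in the result was not tested.

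KRM and CD11chiMϕ were closer in Sham kidneys, and no member passed the test, where 5.13% of 12380 genes were called. At an unadjusted p under 0.05, edgeR found 2 members and 24.5% of genes, and DESeq2 called 3 (H2-Eb1, Cd80 and Cd86). Cd86 was 164, 363 and 95.5 CPM in CD11chiMϕ, all under the 4 KRM values, a difference of 1.17 ± 0.40 on the log2 scale (adjusted p = 0.139). Cd80 differed by -1.01 ± 0.29 on the log2 scale (adjusted p = 0.0956), with no overlap between the values. For H2-Aa, H2-Ab1, H2-Eb1 and Cd74 the log2 fold changes were 0.56 to 0.82 with adjusted p from 0.226 to 0.365, and the values did not overlap, against 24.4% of all genes in either direction. Ciita was close in level, with a log2 fold change of 0.12 ± 0.35, and H2-DMa, H2-DMb1 and Cd40 had 0.36 ± 0.30, 0.39 ± 0.34 and 0.18 ± 0.22, all 4 with overlapping values. Without CD11chiMϕ Sham library 2, Cd86 was called, and without CD11chiMϕ Sham library 3, Cd80 was called.

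Genes around the members were read from 7 lists. In KRM against CD11cloMϕ from Sham kidneys, 3 of 3 other class II genes tested were higher in KRM, with H2-Ob, a chain of the H2-O inhibitor of H2-M, at 87.1 ± 10.1 CPM against 6.81 ± 3.72 CPM. H2-Oa, the other chain of that inhibitor, was higher by a log2 fold change of 2.70 ± 0.25. Of 7 promoter factors, Rfx5, which binds the X box, was higher by 1.26 ± 0.36, and Nfyc, a subunit of the factor at the Y box, was lower by -0.53 ± 0.11, while 5 were not called. Without CD11cloMϕ Sham library 2 or KRM Sham library 4, and with limma on the log2 table, 1 promoter factor, Nfyc, was called, and without CD11cloMϕ Sham library 3 the count was 3. Of 9 genes on the interferon gamma route to Ciita, 1 was higher (Irf8, a myeloid transcription factor, 0.99 ± 0.15) and 4 were lower, among them the receptor-associated kinases Jak2 (-1.11 ± 0.18) and Jak1 (-0.68 ± 0.17) and the myeloid factor Spi1 (-0.47 ± 0.15). These 5 of 9 stand beside the 41.9% called over all genes, and in 1 fit of all groups the list had 1 call, and without CD11cloMϕ Sham library 2, KRM Sham library 2 or KRM Sham library 3 it had 3.

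Of 9 endosomal processing genes, 4 were higher and 2 lower in KRM than in CD11cloMϕ. The asparaginyl endopeptidase Lgmn was higher by a log2 fold change of 1.71 ± 0.23, the cathepsin inhibitor Cst3 by 1.48 ± 0.18 and Cd83, which stabilises class II at the surface, by 1.47 ± 0.34. The cathepsin Ctsd and the thiol reductase Ifi30 were lower, by -1.73 ± 0.11 and -1.09 ± 0.21. Of 6 other ligands of the B7 and TNF families tested, Icosl, the ligand of ICOS, was higher at 233 ± 10.9 CPM against 32.3 ± 2.95 CPM, Cd276 was higher by 3.54 ± 0.28, and Tnfsf9, the ligand of 4-1BB, was lower by -2.40 ± 0.36. Of 8 partners of CD40 and CD74 tested, 2 were higher (the adaptors Traf1 and Traf2) and 3 lower, with Cd44, the CD74 co-receptor, at 113 ± 19.4 CPM against 608 ± 67.3 CPM. Without CD11cloMϕ Sham library 1, 3 of these 5 partners were called. Of 10 class I genes, 5 were higher and none lower, among them B2m (0.86 ± 0.15), H2-K1 (0.85 ± 0.14) and the peptide transporter Tap1 (0.77 ± 0.16). That share is near the 41.9% of all genes, and 1 fit of all groups called 3 of the 10. The median log2 fold change was 2.70 over the other class II genes tested and 0.71 over the class I genes, beside -0.04 over all genes.

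In the comparison of CD11chiMϕ with CD11cloMϕ from Sham kidneys, the other class II genes were the 1 list with calls, 3 of 3 higher. That count was 0 to 3 with 1 library left out and 1 with total library size, and without the Sham libraries numbered 3, 5 endosomal processing genes, 3 B7 and TNF family ligands and 2 partners of CD40 and CD74 were called as well. H2-Oa was 79.9 ± 43.2 CPM against 3.46 ± 0.75 CPM, or 4.57 ± 0.48 on the log2 scale (adjusted p = 0.021). H2-Ob and H2-DMb2, the second H2-M beta gene, were higher by 4.10 ± 0.59 and 3.76 ± 0.61. Against CD11chiMϕ from Sham kidneys, KRM were lower in H2-Oa (-1.84 ± 0.36), H2-DMb2 (-2.46 ± 0.42) and Tnfsf9 (-3.01 ± 0.23). With the replicate number as a block neither H2-Oa nor H2-DMb2 was called, and with 1 library left out 0 to 3 other class II genes were. Summed dendritic cell markers moved with this comparison, at 227 to 268 CPM in KRM and 453 to 1977 CPM in CD11chiMϕ with 5 of 11 called lower in KRM. Also called lower in KRM were 3 of 6 monocyte markers, 2 of 3 neutrophil markers and the 1 T and NK cell marker tested, and the part of these markers in the result was not tested.

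**Figure D3:**
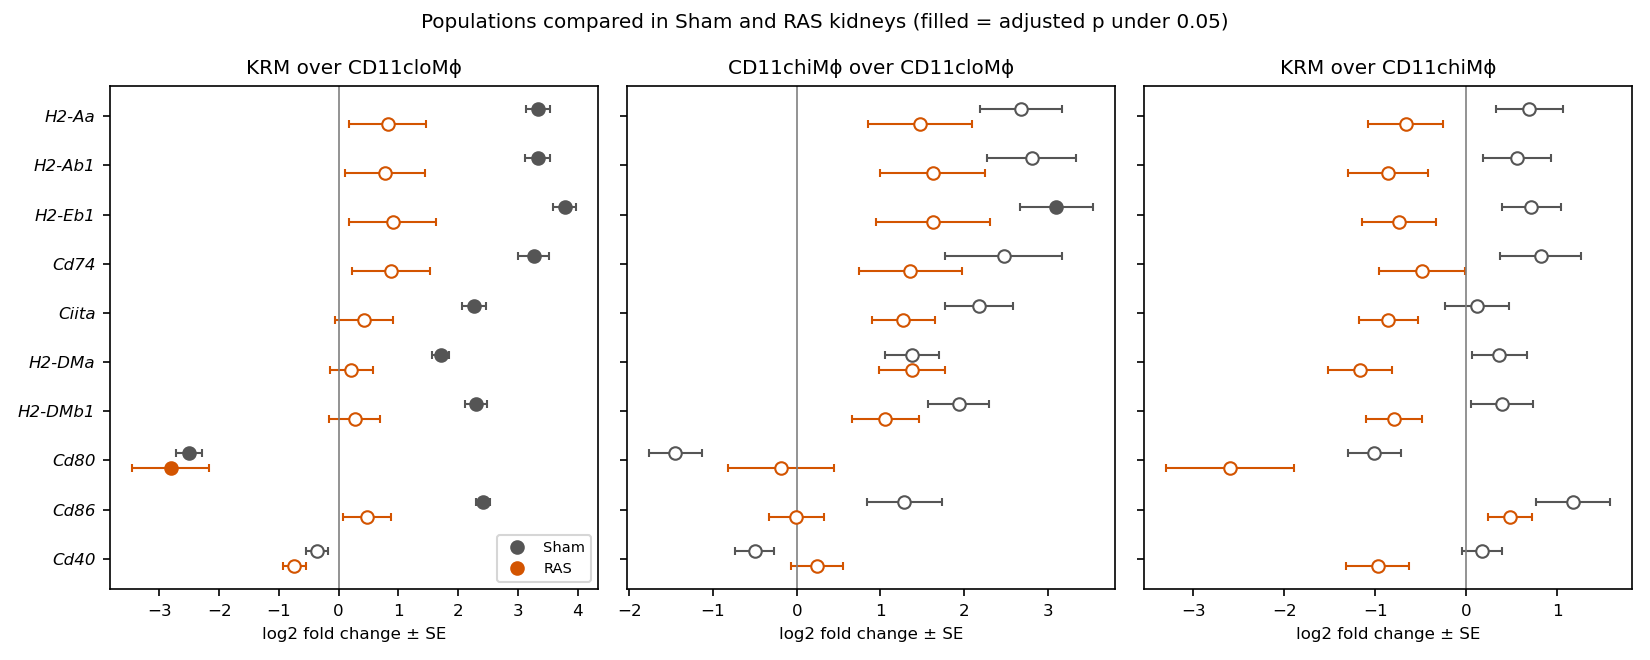
Log2 fold changes of the 10 genes with standard errors for the 3 pairs of populations, in Sham (grey) and RAS kidneys (orange), filled where the adjusted p is under 0.05. In KRM over CD11cloMϕ the Sham values of the class II genes lie at 1.71 to 3.78 and the RAS values at 0.21 to 0.91, and Cd80 lies at -2.51 and -2.81.

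Stenosis was compared with Sham within each population. In CD11cloMϕ all 10 members had a higher mean in RAS kidneys, and for 9 of them, all but Cd80, every RAS library lay above every Sham library, against 4.46% of all genes that were separate in this direction. No member passed the edgeR test with adjustment, and neither did any other of the 12301 genes, although 1102 genes (8.96%) and all 10 members had an unadjusted p under 0.05. DESeq2 called 1 member, H2-DMb1. H2-Ab1 had a log2 fold change of 1.98 ± 0.68, Cd74 of 1.74 ± 0.65, Ciita of 1.38 ± 0.45 and H2-DMb1 of 1.49 ± 0.42, all with an adjusted p of 0.553. H2-Aa, H2-Eb1 and H2-DMa had 1.94 ± 0.68, 2.21 ± 0.77 and 0.91 ± 0.35, with the same adjusted p. The median over the members was 1.43 and that over all genes -0.02. Without RAS library 3 the log2 fold change of H2-Ab1 was 1.13, still above 0. Summed T and NK cell markers were 4.65 to 10.5 CPM in Sham and 16.5 to 46.1 CPM in RAS, and summed dendritic cell markers 114 to 230 CPM and 191 to 489 CPM, with no gene of either list called by edgeR. The part of these markers in the result was not tested.

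The size of the difference in CD11cloMϕ rested on 2 of the 4 RAS libraries. Ciita was 50.4, 60.6 and 77.3 CPM in the Sham libraries and 89.1, 97.3, 305 and 169 CPM in the RAS libraries. Libraries 1 and 2 lay just above the Sham range, and libraries 3 and 4 far above it. Cd40 was more even, with 39.8, 40.6 and 52.3 CPM in Sham and 65.5, 62.5, 97.0 and 85.3 CPM in RAS, a log2 fold change of 0.79 ± 0.21. Cd86 was 93.4, 117, 297 and 158 CPM in RAS, a log2 fold change of 0.90 ± 0.38. Cd80 was 18.9, 85.2, 53.4 and 109 CPM, a log2 fold change of 1.26 ± 0.51, so library 1 lay under the Sham values and the others above them. RAS library 3 also had the most Adgre1 of its population, 1847 CPM against 531 to 876 CPM in the other 6 libraries, and 4149 CPM of Csf1r, the receptor for colony-stimulating factor 1. Its part in the result was not tested beyond leaving it out. Summed endothelial markers were 71.2 and 207 CPM in RAS libraries 3 and 4, and 14.4 to 29.2 CPM in the other libraries of CD11cloMϕ. Summed tubule markers were 499.6 and 333 CPM in RAS libraries 3 and 4 and 23.3 and 83.4 CPM in RAS libraries 1 and 2. In Sham they were 69.1 to 4207 CPM. No gene of these 2 lists was called, and their part in the result was not tested.

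In CD11chiMϕ the members Cd80 and Cd40 stood out by size. Cd40 was 37.7, 28.3 and 23.6 CPM in Sham and 43.1, 92.1, 116 and 116 CPM in RAS, separate values with a log2 fold change of 1.53 ± 0.37 and an adjusted p of 0.508 by edgeR, where 4.36% of genes were separate in this direction. Cd80 was 12.9, 35.2, 89.6 and 98.1 CPM in RAS, with a log2 fold change of 2.52 ± 0.68 and the same adjusted p. The high values of both genes were those of RAS libraries 2 to 4, and library 1 lay near the Sham range. H2-Aa, H2-Ab1, H2-Eb1 and Cd74 had log2 fold changes of 0.62 to 0.79, and Cd86 of -0.39 ± 0.41. Ciita, H2-DMa and H2-DMb1 had 0.47 ± 0.37, 0.90 ± 0.43 and 0.60 ± 0.41, with overlapping values. With 1 library left out, the log2 fold change of Cd86 ranged from -0.71 to 0.26. Sham library 3, the lowest of its group for every member, held 9645 CPM of summed tubule markers. No member and none of the 12739 genes passed the adjustment, where 1247 genes (9.79%) and 2 members had an unadjusted p under 0.05, and DESeq2 called Cd80 and Cd40. RAS libraries 2 to 4 are those low in Adgre1 and high in Cd209a, and their summed dendritic cell markers were 2247 to 5691 CPM against 453 to 1977 CPM in Sham. Over all 4 RAS libraries, summed T and NK cell markers were 86.4 to 285 CPM against 6.69 to 38.2 CPM in Sham, and summed fibroblast and pericyte markers 30.2 to 306 CPM against 18.9 to 24.3 CPM. No gene of these lists was called, and their part in the result was not tested. With only RAS library 1 kept, the log2 fold change of H2-Aa was -0.02.

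In KRM, Cd86 was lower in RAS kidneys. It was 304, 160.5 and 204 CPM against 454 to 507 CPM in Sham, a log2 fold change of -1.0 ± 0.21 with an adjusted p of 0.0328 by edgeR, and it was the 1 member called, where 9.70% of 12852 genes were called. All 3 RAS libraries lay below all 4 Sham libraries for Cd86, H2-Aa, H2-Ab1, H2-Eb1, Cd74 and H2-DMa, against 17.1% of all genes that were separate in this direction. The log2 fold changes of the 4 chains were -0.63 to -0.54, with adjusted p of 0.0801 to 0.127. Cd80 was 5.21, 9.63 and 12.9 CPM and Cd40 was 47.2, 41.2 and 46.1 CPM in RAS, with log2 fold changes of 1.03 ± 0.33 (adjusted p = 0.0822) and 0.47 ± 0.17 (adjusted p = 0.102). Ciita, H2-DMa and H2-DMb1 had -0.42 ± 0.31, -0.54 ± 0.18 and -0.50 ± 0.22, and were not called.

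The KRM result depended on the libraries. The call of Cd86 was lost in 1 fit of all groups (adjusted p = 0.0835 by edgeR) and with the replicate block (adjusted p = 0.12), with log2 fold changes of -1.1 and -1.08. Without KRM RAS library 1, 9 members were called, and DESeq2 on all libraries called 7. The counts of RAS library 1 correlated best with the column for KRM Sham library 4 in the log2 table (r = 0.888, against 0.689 with its own column). Without KRM Sham library 3, 1 member was called, and without any 1 of the remaining libraries none was called. The share of all genes called with these settings is not given here, so whether these counts are particular to the members cannot be read from them. Leaving out RAS libraries 2 and 3 leaves 1 RAS library, with Cd86 at 304 CPM against 454 to 507 CPM in Sham and a log2 fold change of -0.65 ± 0.58. In RAS libraries 2 and 3 the summed tubule markers were 4637 and 3540 CPM, against 211 to 1486 CPM in Sham, and the summed macrophage markers were 4815 and 6136 CPM against 10008 to 11366 CPM. Summed fibroblast and pericyte markers were 355 and 440.1 CPM in these 2 libraries against 18.8 to 41.3 CPM in Sham, with 3 of 5 tested called higher in RAS, and summed endothelial markers were 190 and 160 CPM against 10.1 to 21.8 CPM, with 2 of 5 called, while 1 of 7 tubule markers was called. The T and NK cell markers were summed to 395 CPM in RAS library 1 and 3.09 to 4.09 CPM in Sham, and all 8 of them were called higher in RAS. Summed B and plasma cell markers were 83.03 to 411 CPM in RAS and 412 to 517 CPM in Sham. Of 11 dendritic cell markers 3 were called higher and 1 lower in RAS, and of 6 monocyte markers 1 higher and 1 lower. The part of these in the result was not tested.

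Around the members, KRM from RAS kidneys had 5 called genes among 6 other B7 and TNF family ligands, where 9.70% of all genes were called. The count was 0 with the replicate block and with 1 fit of all groups, and 3 without the Sham libraries numbered 3. Cd274, which encodes PD-L1, was 38.2 ± 7.05 CPM against 20.4 ± 2.75 CPM, a log2 fold change of 1.01 ± 0.18, and Icam1 was higher by 0.83 ± 0.20. Icosl was lower at 96.4 ± 35.7 CPM against 233 ± 10.9 CPM (-1.17 ± 0.22), and Cd276 was lower by -1.02 ± 0.17. Ctsd was higher by 1.77 ± 0.21, Socs1, a feedback inhibitor of interferon signalling, by 1.13 ± 0.28, and Rfxap, an X box factor, was lower by -0.78 ± 0.20. The T cell genes Cd28, Ctla4 and Cd40lg were called higher in RAS, with 15.3, 9.23 and 6.29 CPM in RAS library 1. No class I or other class II gene was called by edgeR on all libraries, and DESeq2 called 3 and 1. With 1 library left out in turn, edgeR called 0 to 9 of the class I genes, 0 to 3 of the other class II genes, 0 to 6 of the B7 and TNF family ligands, 0 to 5 endosomal processing genes in place of 2, 0 to 6 genes of the interferon gamma route in place of 1, 0 to 1 promoter factors in place of 1 and 0 to 6 CD40 and CD74 partners in place of 3. With the replicate block none of the 7 lists had a call. Between RAS and Sham, edgeR called no gene of the 7 lists in CD11chiMϕ or CD11cloMϕ. DESeq2 called 1 each of the other class II, endosomal and B7 and TNF family lists in CD11chiMϕ, and in CD11cloMϕ 1 B7 and TNF family ligand and 2 CD40 and CD74 partners.

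**Figure D4:**
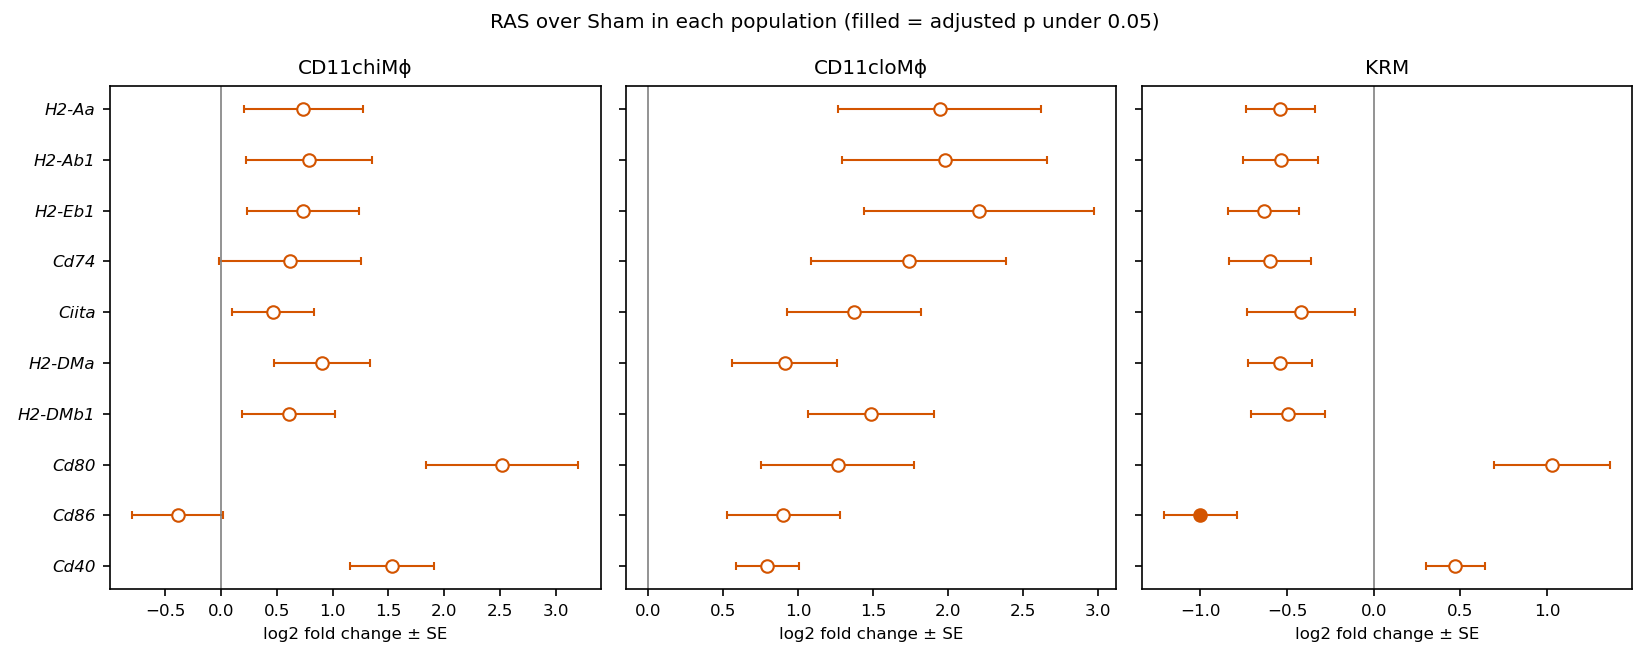
Log2 fold change of RAS over Sham with its standard error for the 10 genes in each population, filled where the adjusted p is under 0.05. The point of Cd86 in KRM, at -1.0, is the filled one, the CD11cloMϕ points lie between 0.79 and 2.21, and the 4 chains lie at -0.63 to -0.54 in KRM.

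Whether the response to stenosis differed between populations was tested directly in a fit of all 21 libraries. For KRM minus CD11cloMϕ the differences were all negative, with -2.64 ± 0.77 for H2-Ab1, -2.96 ± 0.81 for H2-Eb1, -2.10 ± 0.55 for H2-DMb1 and -2.02 ± 0.55 for Cd86 on the log2 scale. None passed the adjustment by edgeR (adjusted p from 0.0912 to 0.847), where 0.4% of 14504 genes were called, while 8 members and 17.3% of genes had an unadjusted p under 0.05. DESeq2 called 6 members and limma on the log2 table called Ciita, H2-DMb1 and Cd86. Without KRM RAS library 1, edgeR called Ciita, H2-DMb1 and Cd86. Cd80 and Cd40 were the exceptions in size, with differences of -0.36 ± 0.80 and -0.45 ± 0.39. H2-Aa, Cd74, Ciita and H2-DMa had -2.60 ± 0.75, -2.46 ± 0.78, -1.91 ± 0.59 and -1.57 ± 0.51.

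For KRM minus CD11chiMϕ the largest differences by size were -1.70 ± 0.82 for Cd80 and -1.63 ± 0.51 for H2-DMa. With only RAS library 1 of CD11chiMϕ kept from its RAS group, the difference of Cd80 was 0.61. The 4 chains had -1.55 to -1.40, Ciita -1.06 ± 0.59, H2-DMb1 -1.28 ± 0.54, Cd86 -0.78 ± 0.54 and Cd40 -1.26 ± 0.40. None of the 10 was called by edgeR (adjusted p from 0.0874 to 0.404), where 0.11% of genes were called and 3 members and 23.1% of genes fell under 0.05 before adjustment, and DESeq2 called H2-DMa. Without CD11chiMϕ Sham library 1 or CD11chiMϕ RAS library 1, H2-DMa and Cd40 were called, and without KRM RAS library 1, H2-DMa. For CD11chiMϕ minus CD11cloMϕ no gene of 14504 was called by edgeR and no member by any alternative, with 1 member (Cd86, -1.24 ± 0.54) and 1457 genes (10%) at an unadjusted p under 0.05. The 4 chains differed by -1.41 to -1.06, Ciita by -0.86 ± 0.58, H2-DMa by 0.059 ± 0.50, H2-DMb1 by -0.82 ± 0.53, Cd80 by 1.33 ± 0.79 and Cd40 by 0.81 ± 0.39. With only RAS library 1 of CD11chiMϕ kept from its RAS group, H2-DMa differed by -0.84, Cd80 by -0.89 and Cd40 by -0.32. These comparisons share libraries with each other and with the RAS against Sham comparisons above.

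In RAS kidneys the populations overlapped more for the chains than in Sham kidneys, while Cd80 was again lower in KRM than in CD11cloMϕ. Cd80 had a log2 fold change of -2.81 ± 0.64 and an adjusted p of 0.0418, the 1 member called, where 9.17% of 13179 genes were called. The 3 KRM values of Cd80 all lay under the 4 CD11cloMϕ values, and 17.6% of genes were separate in this direction. Cd40 was separate as well, 41.2 to 47.2 CPM in KRM and 62.5 to 97.0 CPM in CD11cloMϕ, with -0.74 ± 0.19 and an adjusted p of 0.0511. The chains had log2 fold changes of 0.77 to 0.91, Ciita 0.42 ± 0.49, H2-DMa 0.21 ± 0.36, H2-DMb1 0.27 ± 0.42 and Cd86 0.47 ± 0.41, all with overlapping values. For each chain the overlap came from CD11cloMϕ RAS library 3 alone, with H2-Ab1 at 19519 CPM against 11388 to 16875 CPM in KRM. The other CD11cloMϕ RAS libraries held 2990, 3312 and 7457 CPM of H2-Ab1. With 1 library left out at a time, 3 members were called without CD11cloMϕ RAS library 3, 2 without KRM RAS library 1, 1 without CD11cloMϕ RAS library 1 and none without any of the other 4. Summed tubule markers were 982 to 4637 CPM in KRM and 23.3 to 499.6 CPM in CD11cloMϕ, with 2 of 8 called higher in KRM, as were 2 of 8 T and NK cell markers, while all 6 monocyte and all 3 neutrophil markers tested were called lower. The part of these markers in the result was not tested.

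Against CD11chiMϕ from RAS kidneys, 9 of 10 members had a lower mean on the log2 scale in KRM and none was called, where 9.23% of 13226 genes were called. At an unadjusted p under 0.05, 5 members and 29.8% of genes were found, and DESeq2 called H2-DMa, H2-DMb1 and Cd80. Cd80 had -2.59 ± 0.71 (adjusted p = 0.0562), H2-DMa -1.17 ± 0.35 and Ciita -0.85 ± 0.33, all 3 with separate values, against 15.8% of genes separate in this direction. The 4 chains had -0.86 to -0.48, H2-DMb1 -0.79 ± 0.31, Cd40 -0.98 ± 0.34 and Cd86 0.48 ± 0.24, with overlapping values. Without CD11chiMϕ RAS library 1, 4 members were called, and without KRM RAS library 1, 1 member. With CD11chiMϕ RAS libraries 2 to 4 left out, the log2 fold change of H2-Aa was 0.16 in place of -0.67. Of 11 dendritic cell markers 5 were called lower in KRM, and of 8 tubule markers 1 was called higher, and their part in the result was not tested.

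CD11chiMϕ against CD11cloMϕ from RAS kidneys gave log2 fold changes of 1.35 to 1.63 for the 4 chains, 1.27 ± 0.38 for Ciita, 1.38 ± 0.39 for H2-DMa and 1.06 ± 0.40 for H2-DMb1. None was called, where 8.27% of 12305 genes were called, and 6 members and 25.8% of genes had an unadjusted p under 0.05, with DESeq2 calling 3 (H2-Ab1, Ciita and H2-DMa). Ciita was 347, 414, 409 and 429 CPM in CD11chiMϕ, above all 4 CD11cloMϕ values, and was the 1 member with separate values, against 9.35% of genes in this direction. Cd80, Cd86 and Cd40 had log2 fold changes of -0.19 ± 0.64, -0.01 ± 0.33 and 0.24 ± 0.31. Without CD11cloMϕ RAS library 3, 7 members were called, without CD11chiMϕ RAS library 1, 1, and without any other library none. The replicate block gave 7 calls, although the numbers of RAS libraries do not all pair, and 1 fit of all groups gave 4. The share of all genes called with these settings is not given here. Dendritic cell markers moved with this comparison, with a summed level of 1227 to 5691 CPM in CD11chiMϕ and 191 to 489 CPM in CD11cloMϕ and 9 of 11 called higher in CD11chiMϕ, and their part in the result was not tested.

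In RAS kidneys the other class II genes had their highest levels in CD11chiMϕ. All 4 of those tested were higher than in CD11cloMϕ and than in KRM. H2-DMb2 was 259, 559, 1398 and 1403 CPM in CD11chiMϕ, 8.65 to 41.7 CPM in CD11cloMϕ and 28.5 to 44.4 CPM in KRM from RAS kidneys. H2-Oa was 90.3, 257, 374 and 376 CPM, with log2 fold changes of 5.40 ± 0.61 over CD11cloMϕ and -3.99 ± 0.58 for KRM over CD11chiMϕ. H2-Eb2 was higher than in CD11cloMϕ by 4.46 ± 0.60. RAS library 1 of CD11chiMϕ, the lowest of the 4 for H2-DMb2 and H2-Oa, also lay above all KRM and CD11cloMϕ libraries from RAS kidneys for both genes. With 1 library left out, 3 to 4 of these genes were called against CD11cloMϕ and 0 to 4 against KRM. Leaving out RAS libraries 2 to 4, those highest in dendritic cell markers, leaves 1 library of CD11chiMϕ, and the counts were then 2 and 0. The dendritic cell markers, 9 of 11 of them called higher in CD11chiMϕ than in CD11cloMϕ from RAS kidneys, moved with these genes, and their part was not tested.

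Elsewhere in the lists, KRM from RAS kidneys were lower than CD11chiMϕ in Ifi30 (-2.68 ± 0.48), Jak2 (-2.32 ± 0.42), Pdcd1lg2, which encodes PD-L2 (-2.83 ± 0.60), Traf1 (-1.64 ± 0.38), Cd44 (-1.62 ± 0.23), Traf5 (-1.01 ± 0.24) and the immunoproteasome subunit Psmb8 (-1.32 ± 0.31). The calls were 1 of 9 endosomal processing genes, 1 of 9 on the interferon gamma route and 1 of 7 B7 and TNF family ligands. They were 3 of 11 CD40 and CD74 partners and 1 of 10 class I genes, where 9.23% of all genes were called. Each of the 5 lists had none with the replicate block and with at least 1 of the libraries left out. KRM were lower than CD11cloMϕ in Cd44 (-2.84 ± 0.38), Jak2 (-1.50 ± 0.33), Ifi30 (-1.12 ± 0.24), Traf3 (-1.09 ± 0.19) and Jak1 (-0.84 ± 0.20). These were 2 of 9 genes on the interferon gamma route, 1 of 9 endosomal processing genes and 2 of 11 partners, where 9.17% of all genes were called. CD11chiMϕ were higher than CD11cloMϕ in Ctla4 (2.47 ± 0.39), Cd28 (1.48 ± 0.35) and Psmb9 (0.88 ± 0.21), and lower in Cd44 (-1.20 ± 0.29) and Vsir, which encodes the inhibitory ligand VISTA (-1.03 ± 0.26). These were 3 of 11 partners, 1 of 7 B7 and TNF family ligands and 1 of 10 class I genes, where 8.27% of all genes were called. With 1 library left out, KRM against CD11cloMϕ gave 0 to 5 calls on the interferon gamma route, 0 to 2 among the endosomal processing genes (0 with total library size) and 0 to 3 among the CD40 and CD74 partners, and CD11chiMϕ against CD11cloMϕ gave 1 to 5 among the partners, 0 to 3 among the B7 and TNF family ligands and 0 to 2 among the class I genes. Summed T and NK cell markers were 86.4 to 285 CPM in CD11chiMϕ and 16.5 to 46.1 CPM in CD11cloMϕ from RAS kidneys, and 6 of 7 tested were called higher in CD11chiMϕ. In KRM against CD11cloMϕ from RAS kidneys all 6 monocyte markers and all 3 neutrophil markers tested were called lower in KRM, with summed levels of 533 to 957 and 0.641 to 10.8 CPM in KRM and of 2045 to 4905 and 1463 to 2218 CPM in CD11cloMϕ, and their part was not tested. The part of the T and NK cells in the values of Ctla4 and Cd28 was not tested. Summed dendritic cell markers were 1227 to 5691 CPM in CD11chiMϕ and 215 to 280 CPM in KRM from RAS kidneys, with 5 of 11 called lower in KRM, and their part was not tested either.

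**Figure D5:**
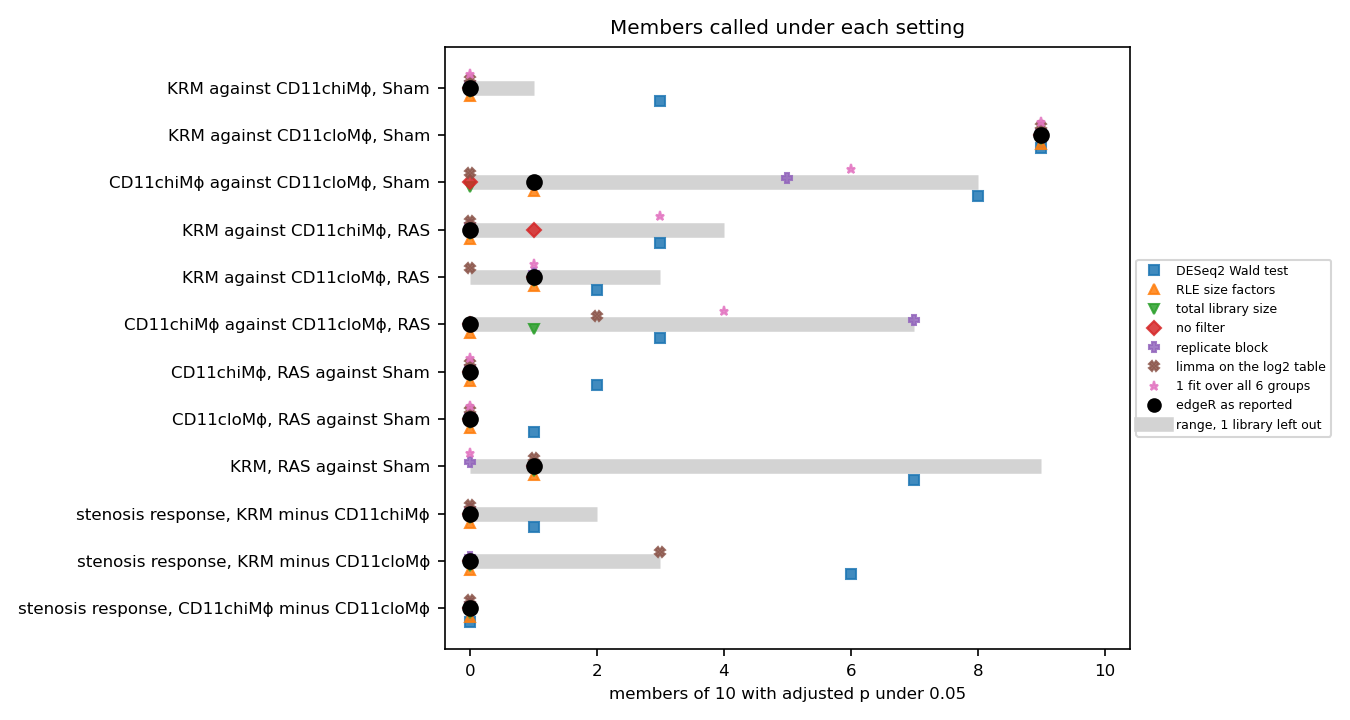
Number of the 10 genes with an adjusted p under 0.05 in each comparison, as reported (black) and under each other setting (coloured symbols, with slight vertical offsets), with a grey bar from the lowest to the highest count when 1 library was left out. The count for KRM against CD11cloMϕ in Sham kidneys is 9 throughout, and the grey bar reaches from 0 to 9 for KRM in RAS against Sham.

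Over all 21 libraries, 8 genes outside the 10 followed the chains most closely. Likeness was the root mean square difference between the centred log2 CPM of a gene and the centred mean log2 CPM of H2-Aa, H2-Ab1, H2-Eb1 and Cd74, over 8883 genes with a mean log2 CPM of at least 3. The chain pattern itself had a root mean square of 1.32. The nearest genes were Rtn1 (0.261), Ust (0.351), Slamf7 (0.368), Il21r (0.422), Clec4b1 (0.427), Stk38l (0.492), Sh3pxd2b (0.497) and the class I gene H2-Q6 (0.501). Rtn1, a reticulon of the endoplasmic reticulum, was 79.2 ± 11.1 CPM in KRM and 9.46 ± 4.03 CPM in CD11cloMϕ from Sham kidneys. By the same measure the members lay at 0.484 for H2-DMb1, 0.503 for Ciita, 0.636 for H2-DMa, 0.883 for Cd86, 1.39 for Cd40 and 2.24 for Cd80. The median over the genes compared was 1.40, so H2-DMb1, Ciita and H2-DMa were nearer to the chains than most genes. The 8 genes named were picked as the nearest, and of these Rtn1, Ust, Slamf7, Il21r and Clec4b1 lay nearer than H2-DMb1, Ciita and H2-DMa. Cd40 and Cd80 were farther from the chains than a flat profile would be. These values are descriptions over libraries that share their sorts and normalisation.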

How the data were processed

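Macrophage RNA was amplified with the SMART-Seq v4 kit and sequenced after Nextera XT preparation. The authors aligned paired-end reads to mm10 with the OSA aligner and assigned them to Ensembl R83 genes, and their processing notes name DESeq2. The deposited counts are estimated counts per gene. Of all values of a library, zeros included, 8.57% to 12.2% were not whole (tolerance 0.001), and the counts were rounded here. The deposited second table is described as quantile-normalised TPM and its values are on the log2 scale. Its column for KRM RAS library 1 does not correspond to the counts (r = 0.689 across genes, against 0.911 to 0.946 for the other libraries), so it served only for an alternative. The counts of KRM RAS library 1 correlated best with the column for KRM Sham library 4 (r = 0.888). Whether the counts or the column carry a wrong label was not tested, and the counts were kept as labelled. Rows of the same symbol were summed, which left 34236 symbols from 37620 rows. Ciita had 2 rows and the other members 1.

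Levels are CPM with TMM factors over all libraries. Each pair of groups was fitted on its own libraries in edgeR 4.0.16 (R 4.3.3) with glmQLFit and glmQLFTest, after filterByExpr (minimum count 10, minimum total 15), and differences of responses in a fit of all 6 groups. P-values were adjusted by Benjamini-Hochberg over all genes tested, and a gene was called at an adjusted p under 0.05. The alternatives were DESeq2 1.42.0, RLE factors, total library size, no filter, a fit of all groups, a block for the replicate number, limma 3.58.1 on the log2 table and each library left out in turn. Alternatives without the Sham libraries numbered 3, without CD11chiMϕ RAS libraries 2 to 4, without KRM RAS libraries 2 and 3, and limma without the column for KRM RAS library 1 were added after seeing the data. The script was tested on simulated data.

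The members, lists and markers were chosen with earlier results of these data known. All 10 members are named in every comparison. Of the 7 lists (136 of 138 list and marker genes matched, Marchf1 not analysed here), up to 3 genes per list and direction are named per comparison, by size, if called and with separate values. Same-numbered Sham libraries of different populations deviated together (every correlation from 0.185 to 0.660 over genes), so the numbers were taken as pairs there, from the data and not from the labels. Between CD11chiMϕ and CD11cloMϕ only the Sham libraries numbered 3 matched each other best, so the pairing of those numbered 1 and 2 is uncertain. The counts of any pair of replicates differed beyond counting error. Depth, of 6891142 to 18592381 counts, limits only genes of a few CPM.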

Additional observations from a re-analysis of the deposited data

How the results depend on the processing

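Of 1860 planned recalculations of single genes, 1713 kept direction and side of the threshold, and of 250 added after seeing the data, 213. The number of members called was less stable. The share of all genes called under each alternative is not given here, so whether a count is particular to the members cannot be read from it. DESeq2 called 3 members for KRM against CD11chiMϕ in Sham and 3 in RAS kidneys, 8 and 3 for CD11chiMϕ against CD11cloMϕ, 2 for KRM against CD11cloMϕ in RAS, 2, 1 and 7 for RAS against Sham in CD11chiMϕ, CD11cloMϕ and KRM, and 1 and 6 for the response of KRM minus that of CD11chiMϕ and CD11cloMϕ. With total library size the counts for CD11chiMϕ against CD11cloMϕ were 0 in Sham and 1 in RAS. With no filter they were 0 for that pair in Sham and 1 for KRM against CD11chiMϕ in RAS. With 1 fit of all groups they were 6 and 4 for CD11chiMϕ against CD11cloMϕ, 3 for KRM against CD11chiMϕ in RAS and 0 for KRM in RAS against Sham. With limma on the log2 table they were 0 and 2 for CD11chiMϕ against CD11cloMϕ, 0 for KRM against CD11cloMϕ in RAS and 3 for the response of KRM minus CD11cloMϕ. Without the column for KRM RAS library 1, limma called 1 for KRM against CD11chiMϕ in RAS, 6 for KRM in RAS against Sham and 3 for the response of KRM minus CD11cloMϕ. Without the Sham libraries numbered 3 the counts were 1 for KRM and 9 for CD11cloMϕ against CD11chiMϕ in Sham, and without KRM RAS libraries 2 and 3, which leaves 1 library assumed to vary like the others, they were 0 for KRM against CD11cloMϕ in RAS and 0 for KRM in RAS against Sham. With the replicate block the count was 5 for CD11chiMϕ against CD11cloMϕ in Sham, 7 in RAS and 0 for KRM in RAS against Sham, where the numbers of RAS libraries do not all pair and are names only. The block changed no other count by over 1.5 times. With 1 library left out in turn, the counts ranged from 0 to 1 for KRM against CD11chiMϕ, 9 to 9 for KRM against CD11cloMϕ and 0 to 8 for CD11chiMϕ against CD11cloMϕ in Sham, from 0 to 4, 0 to 3 and 0 to 7 for the same pairs in RAS, from 0 to 9 for KRM in RAS against Sham, and from 0 to 2 and 0 to 3 for the response of KRM minus CD11chiMϕ and CD11cloMϕ. The cause of these changes was not tested.

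Changes of sign were seen in 40 recalculations, none of a called value and none called after the change. Without CD11chiMϕ RAS libraries 2 to 4, which leaves 1 library assumed to vary like the others, the log2 fold changes of KRM against CD11chiMϕ in RAS were 0.16 for H2-Aa, 0.11 for H2-Eb1, 0.19 for Cd74 and 0.13 for Cd40, those of CD11chiMϕ against CD11cloMϕ 0.12 for Cd86 and -0.84 for Cd40, and those of CD11chiMϕ in RAS against Sham -0.022 for H2-Aa and -0.050 for H2-Eb1. The response differences were then 0.61 for Cd80 in KRM minus CD11chiMϕ, and -0.84 for H2-DMa, -0.89 for Cd80 and -0.32 for Cd40 in CD11chiMϕ minus CD11cloMϕ. Without the Sham libraries numbered 3, Ciita was at -0.11 in KRM against CD11chiMϕ and H2-DMa at -0.23 in CD11chiMϕ minus CD11cloMϕ, where total library size gave -0.024 and limma -0.078, with or without its column for KRM RAS library 1. Without that column limma gave 0.11 for H2-Aa in KRM against CD11chiMϕ in RAS. For Cd86 in CD11chiMϕ against CD11cloMϕ in RAS, total library size gave 0.0019, the replicate block 0.14 and limma 0.17. Ciita in KRM in RAS against Sham was 0.13 without KRM RAS libraries 2 and 3, Cd80 there was -0.14 with limma, and Cd80 in KRM minus CD11cloMϕ was 0.23 with the replicate block. With 1 library left out, values that crossed 0 ranged from -0.20 to 0.51 for Ciita in KRM against CD11chiMϕ in Sham, -0.070 to 0.90 for Ciita in KRM against CD11cloMϕ in RAS, -0.54 to 0.17 for Cd80 and -0.20 to 0.43 for Cd86 in CD11chiMϕ against CD11cloMϕ in RAS, -0.71 to 0.26 for Cd86 in CD11chiMϕ in RAS against Sham, -0.68 to 0.057 for Cd80 in KRM minus CD11cloMϕ and -0.29 to 0.48 for H2-DMa in CD11chiMϕ minus CD11cloMϕ. Among the members, depth limits Cd80 most, at 4.33 to 12.9 CPM in KRM and 6.40 to 13.2 CPM in CD11chiMϕ from Sham kidneys.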
